A study of Homo sapiens with 9 samples.

Results

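The 10 genes MRE11, RAD50, NBN, EXO1, DNA2, MCM8, MCM9, HELQ, TONSL and FIGNL1 encode the machinery of DNA end resection and accessory factors of homologous recombination. They were taken by symbol from gene count tables with 44608 entries each, all 10 were found in every table, and all 10 were among the 14815 genes that passed the filter on low counts. The tables come from U2OS, a human osteosarcoma cell line, transfected with a lipid reagent and siRNA at 75 nM and harvested 48 h later. The groups were siNFKB2, siRNA against NFKB2 (3 libraries), siRELB, siRNA against RELB (3 libraries), and siNS, a non-silencing siRNA (3 libraries). NFKB2 and RELB encode subunits that pair in the non-canonical NF-kB pathway, and the series is about recombination genes after loss of NFKB2. All 3 groups share the cell line, the transfection and the harvest time. The labels give neither the siRNA sequences nor their number per target, so effects through the target and through other transcripts cannot be told apart. Replicates are numbered in the labels but not called separate cultures, and a p-value here is set against library-to-library spread that may be technical.

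When both strands of DNA are broken, resection trims the 5′ strand of each end and leaves a 3′ single-stranded tail. The MRE11-RAD50-NBN complex begins this, with EXO1 and DNA2 extending it over long stretches. The tail is coated first by RPA and then by the strand-exchange recombinase, which searches for a homologous template. MCM8-MCM9, HELQ, TONSL and FIGNL1 act around that step, by unwinding DNA or by loading or removing the recombinase. Resection and recombination act mainly in S and G2 phases, and several of the enzymes also serve DNA replication.

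Levels are in CPM, read counts divided by TMM-scaled library size, and means are given ± SD over n = 3 libraries. The test was edgeR's quasi-likelihood test, its p-values were adjusted by Benjamini and Hochberg's method over the 14815 genes, and genes under 0.05 are called. Every adjusted p is from that test unless another is named. Log2 fold changes carry the standard error (SE). Total counts ranged from 15011789 to 18842542 in siNFKB2, from 17658315 to 19279572 in siRELB and from 16330036 to 18987115 in siNS. Mitochondrial rRNA took 0.519% to 2.68% of counts in siNFKB2, 0.379% to 0.856% in siRELB and 0.406% to 1.33% in siNS, and its part in the results was not tested. The siNS replicate 1 stood furthest from its group, at a chi-square over degrees of freedom of 83.55 and 44.98 to the other siNS libraries, which were at 16.79 to each other. Replicate 1 was furthest in the other groups too. It was at 36.35 and 58.93 in siNFKB2, against 18.34 between replicates 2 and 3. In siRELB it was at 23.39 and 23.54, against 3.31. The siNFKB2 replicates 1 to 3 kept 4.86%, 21.1% and 44.8% of the NFKB2 level in siNS, and the siRELB replicates kept 9.79%, 17.1% and 19.7% of RELB. Mesenchymal markers summed to 4206 to 4514 CPM in siNFKB2, 4356 to 5407 CPM in siRELB and 4617 to 6117 CPM in siNS, with 1 of 7, TWIST1, at a count of 0 throughout; 4 of the 6 tested fell in siNFKB2 against siNS, and their part in the results was not tested. The 6 epithelial markers summed to 9.50 to 12.5, 13.1 to 15.5 and 10.3 to 17.1 CPM in the same groups, with none at 0.

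Between siNFKB2 and siNS, 5 of the 10 genes fell, 2 rose and 3 were not called. Those that fell were TONSL, EXO1, DNA2, MCM8 and MRE11, and those that rose were NBN and HELQ. Over all genes tested, 26.1% were called, 13.5% lower and 12.6% higher. The median log2 fold change was -0.47 for the 10 genes and 0.00 for all genes. For 9 of the 10 genes the siNFKB2 and siNS libraries did not overlap, as for 37.4% of all genes tested. In bulk RNA, fewer cells in the phase that expresses a gene and less of its RNA per cell cannot be told apart.

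**Figure D1:**
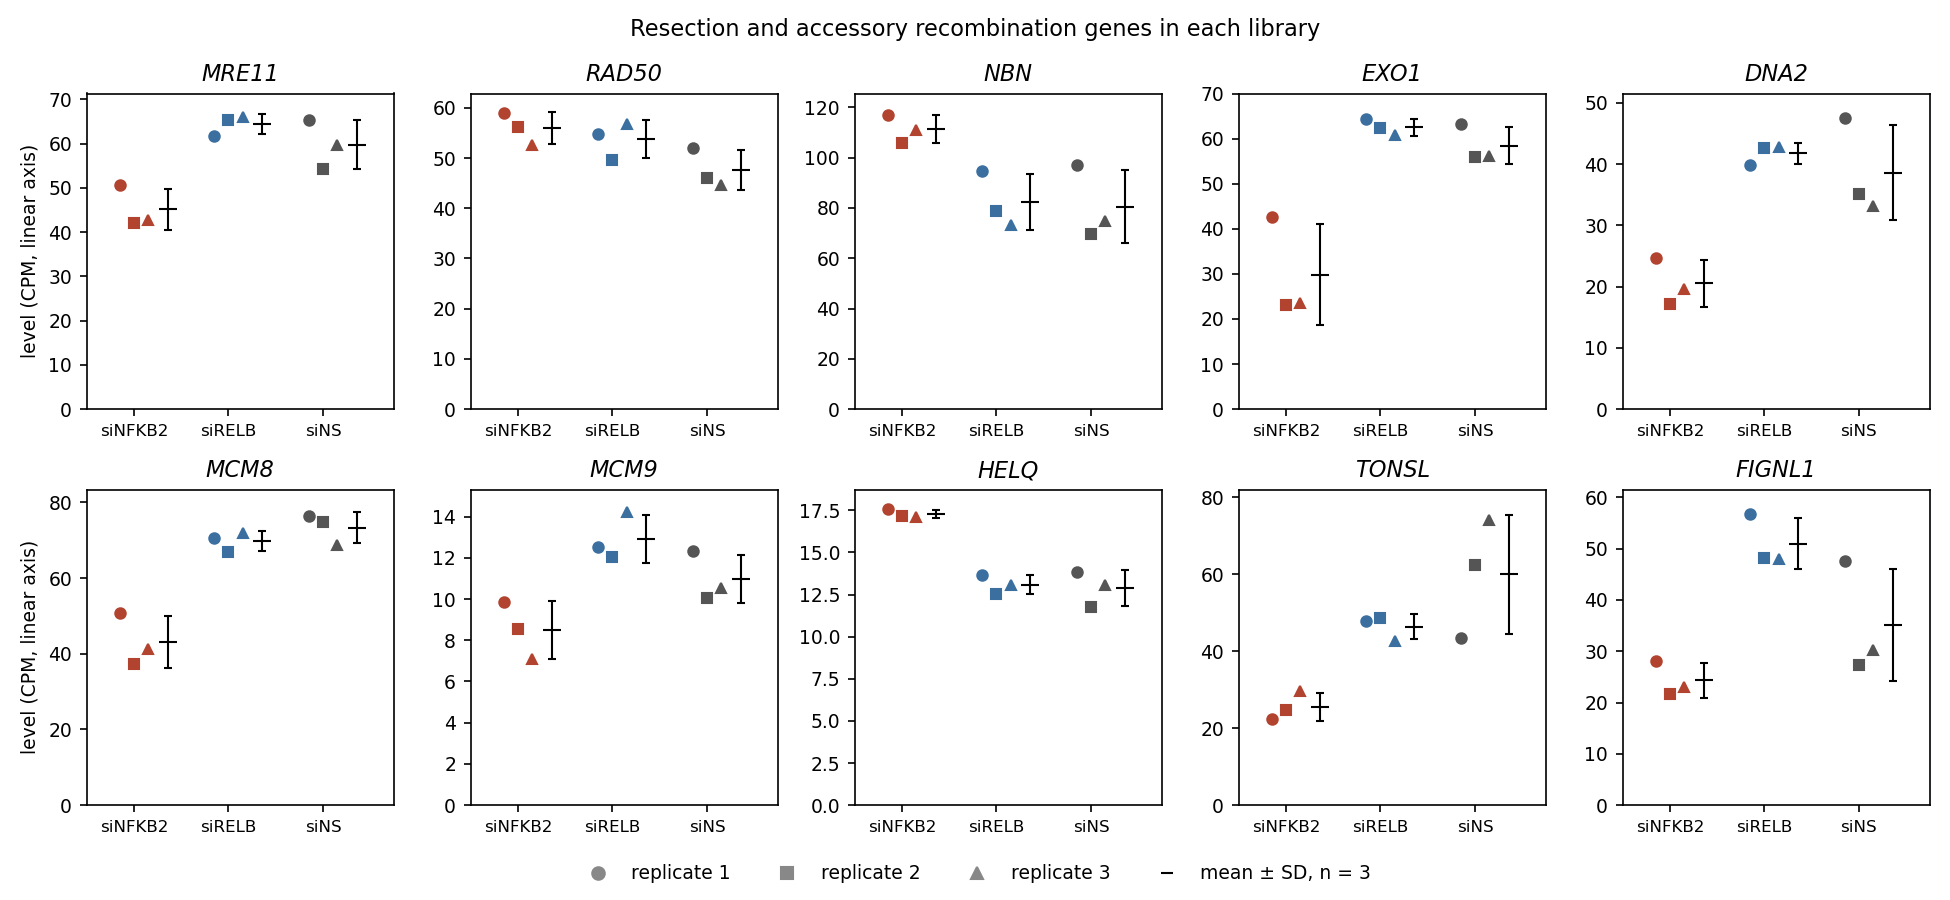
Level of each of the 10 genes in every library, in CPM on linear axes that start at 0, with replicates 1 to 3 as circles, squares and triangles and the mean ± SD of each group of 3 beside them. EXO1, DNA2, MCM8 and TONSL sit lower in all 3 siNFKB2 libraries than in any siNS library, HELQ sits higher, and FIGNL1 overlaps between siNFKB2 and siNS.

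The 3 subunits of the MRE11-RAD50-NBN complex, which tethers broken ends and starts resection, did not move together in siNFKB2. MRE11 lies on chromosome 11 (94415578 to 94493908, minus strand, GRCh38) and RAD50 on chromosome 5 (132556019 to 132646344, plus strand). MRE11, the nuclease subunit, had 50.6, 42.1 and 42.7 CPM in siNFKB2 replicates 1 to 3, against 65.4, 54.2 and 59.7 CPM in siNS. All siNFKB2 libraries lay under all siNS libraries, and MRE11 fell (log2 -0.41, SE 0.12, adjusted p = 0.0327). NBN, the subunit that recruits the kinase ATM, had 117.0, 105.8 and 111.1 CPM in siNFKB2, against 97.2, 69.8 and 74.7 CPM in siNS, again without overlap. It rose in siNFKB2 (log2 0.47, SE 0.15, adjusted p = 0.0425). RAD50, the ATPase that bridges the ends, had 58.9, 56.2 and 52.6 CPM in siNFKB2 and 52.1, 46.0 and 44.6 CPM in siNS. Its lowest siNFKB2 library was just above its highest siNS library, and it was not called (log2 0.23, SE 0.12, adjusted p = 0.166). RAD50 shares 79.7% of its exonic length with another gene model on the same strand in GENCODE 29, AC116366.3, so its count is uncertain.

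Ratios of counts within a library do not depend on how libraries are scaled. They describe the RNA of the subunits, while the complex itself was not measured. There were 2.31, 2.51 and 2.60 NBN counts per MRE11 count in siNFKB2 replicates 1 to 3, against 1.49, 1.29 and 1.25 in siNS. The siRELB libraries had 1.54, 1.20 and 1.11, which overlapped siNS. For RAD50 the ratio to MRE11 was 1.17, 1.33 and 1.23 in siNFKB2, 0.887, 0.759 and 0.862 in siRELB and 0.796, 0.849 and 0.747 in siNS. With 3 libraries a group, a two-sided exact permutation test cannot go below p = 0.1, and the ratios are given as a description, without a test.

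The calls of MRE11 and NBN were not robust to the libraries used. MRE11 was at an adjusted p of 0.148 and 0.124 without siNFKB2 replicates 2 and 3, 0.0611 and 0.0601 without siRELB replicates 2 and 3, and 0.059 and 0.107 without siNS replicates 1 and 3. NBN was at 0.0893, 0.09 and 0.108 without siNFKB2 replicates 1 to 3, 0.0704 and 0.0599 without siRELB replicates 2 and 3, and 0.129 and 0.153 without siNS replicates 2 and 3. Across 18 alternatives MRE11 had adjusted p between 0.00466 and 0.148 and NBN between 0.000487 and 0.153, while MRE11 stayed negative and NBN positive in all of them.

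The nucleases of long-range resection fell in siNFKB2 to about the same degree. EXO1 lies on chromosome 1 (241847967 to 241895148, plus strand, GRCh38) and DNA2 on chromosome 10 (68414064 to 68472121, minus strand). EXO1, a 5′ to 3′ exonuclease that also serves mismatch repair, had 42.7, 23.2 and 23.6 CPM in siNFKB2 replicates 1 to 3, against 63.2, 56.0 and 56.3 CPM in siNS. Replicate 1 kept the most EXO1 of the siNFKB2 libraries, and it also had the least NFKB2. Replicate 1 was the highest library for EXO1 in siNS and in siRELB (64.4 CPM) too. The mean was 29.8 ± 11.2 CPM in siNFKB2 and 58.5 ± 4.10 CPM in siNS (log2 -0.97, SE 0.21, adjusted p = 0.00823). DNA2, a nuclease and helicase that also trims flaps on the lagging strand in replication, had 24.7, 17.2 and 19.7 CPM in siNFKB2, against 47.5, 35.1 and 33.2 CPM in siNS. The groups did not overlap, and DNA2 fell to 53.2% of the siNS mean (log2 -0.91, SE 0.17, adjusted p = 0.00432). There were 1.73, 1.34 and 1.20 EXO1 counts per DNA2 count in siNFKB2, against 1.33, 1.59 and 1.70 in siNS, so the ratio of the nucleases overlapped between the groups.

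MCM8 and MCM9 form a helicase related to the replicative MCM complex, which drives DNA synthesis during recombination. MCM8 had 50.8, 37.4 and 41.4 CPM in siNFKB2, against 76.4, 74.8 and 68.8 CPM in siNS, with no overlap (log2 -0.76, SE 0.13, adjusted p = 0.00245). MCM9 was lowly expressed, at 9.88, 8.53 and 7.08 CPM in siNFKB2, against 12.3, 10.1 and 10.5 CPM in siNS. Its groups did not overlap either, but it was not called (log2 -0.37, SE 0.17, adjusted p = 0.132). There were 5.15, 4.38 and 5.84 MCM8 counts per MCM9 count in siNFKB2, 5.64, 5.55 and 5.06 in siRELB and 6.21, 7.43 and 6.53 in siNS. On this ratio siRELB and siNFKB2 overlapped each other and both lay under siNS.

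HELQ, a DNA helicase that acts with the paralogs of the recombinase, went the other way. It had 17.6, 17.2 and 17.1 CPM in siNFKB2 replicates 1 to 3, against 13.8, 11.8 and 13.1 CPM in siNS, and rose (log2 0.42, SE 0.13, adjusted p = 0.0316). The siNFKB2 libraries were close together and above every siNS library. The call was lost without siNFKB2 replicates 1, 2 or 3 (adjusted p = 0.0548, 0.0825 and 0.0755), without siRELB replicates 2 or 3 (0.0588 and 0.0604) and without siNS replicates 2 or 3 (0.1 and 0.0881). Over 18 alternatives its adjusted p ranged from 0.011 to 0.168 and its log2 fold change from 0.36 to 0.47.

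TONSL had the largest fall of the 10 genes. It acts with MMS22L on newly replicated chromatin and promotes loading of the recombinase. TONSL had 22.4, 24.7 and 29.6 CPM in siNFKB2 replicates 1 to 3, against 43.4, 62.5 and 74.1 CPM in siNS, a mean of 42.6% of the siNS mean (log2 -1.23, SE 0.19, adjusted p = 0.00159). The siNS libraries spread widely, and even the lowest of them, replicate 1, was above all siNFKB2 libraries. A suffixed entry of TONSL held a count of 0 in every library. FIGNL1, an ATPase that removes the recombinase from DNA, had 28.2, 21.8 and 23.1 CPM in siNFKB2, against 47.5, 27.3 and 30.3 CPM in siNS. The highest siNFKB2 library was above siNS replicate 2 and under the other siNS libraries, and FIGNL1 was not called (log2 -0.53, SE 0.21, adjusted p = 0.0858). With siNS replicate 2 left out FIGNL1 was called (log2 -0.68, adjusted p = 0.0433). Leaving out siNS replicate 1, its highest siNS library, shrank the fall (log2 -0.24, adjusted p = 0.239). Over 18 alternatives its adjusted p ranged from 0.0076 to 0.275.

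Between siRELB and siNS none of the 10 genes was called, where 2.02% of all genes tested were, 0.810% lower and 1.21% higher. By edgeR 1 of the 10 had an unadjusted p below 0.05, FIGNL1, where 16.8% of all genes tested did. DESeq2 and limma-voom also called 0 of the 10, and called 879 and 311 of the 14815 genes. The median log2 fold change was 0.10 for the 10 genes and -0.02 for all genes. The siRELB and siNS libraries did not overlap for 1 of the 10 genes, as for 22.5% of all genes tested. The knockdowns share the siNS libraries, so the comparisons with siNS are not independent.

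FIGNL1 and TONSL had the largest differences in siRELB. FIGNL1 had 56.8, 48.1 and 48.0 CPM in siRELB replicates 1 to 3, against 47.5, 27.3 and 30.3 CPM in siNS (log2 0.54, SE 0.20, adjusted p = 0.221). All siRELB libraries were above all siNS libraries, narrowly so for siNS replicate 1. Without that library it was called (log2 0.82, adjusted p = 0.0103), in a range of 0.000969 to 0.608 over 18 alternatives. TONSL had 47.9, 48.6 and 42.7 CPM in siRELB, against 43.4, 62.5 and 74.1 CPM in siNS (log2 -0.37, SE 0.19, adjusted p = 0.354). The siNS replicate 1 fell among the siRELB libraries. Without it TONSL was called (log2 -0.56, adjusted p = 0.0351), in a range of 0.00804 to 0.812 over 18 alternatives.

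The other 8 genes had log2 fold changes from -0.07 to 0.23 in siRELB against siNS. EXO1 averaged 62.5 ± 1.83 CPM in siRELB and 58.5 ± 4.10 CPM in siNS (log2 0.10, SE 0.21, adjusted p = 0.858), and DNA2 averaged 41.8 ± 1.65 CPM in siRELB and 38.6 ± 7.79 CPM in siNS (log2 0.11, SE 0.17, adjusted p = 0.793). MRE11 averaged 64.3 ± 2.27 CPM in siRELB and 59.8 ± 5.60 CPM in siNS (log2 0.11, SE 0.12, adjusted p = 0.709). The log2 fold changes of RAD50, NBN, MCM8, MCM9 and HELQ were 0.18, 0.03, -0.07, 0.23 and 0.02, with adjusted p from 0.482 to 0.946. Their SE was 0.12 to 0.16, so changes of this size could not be told from 0 with these libraries.

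**Figure D2:**
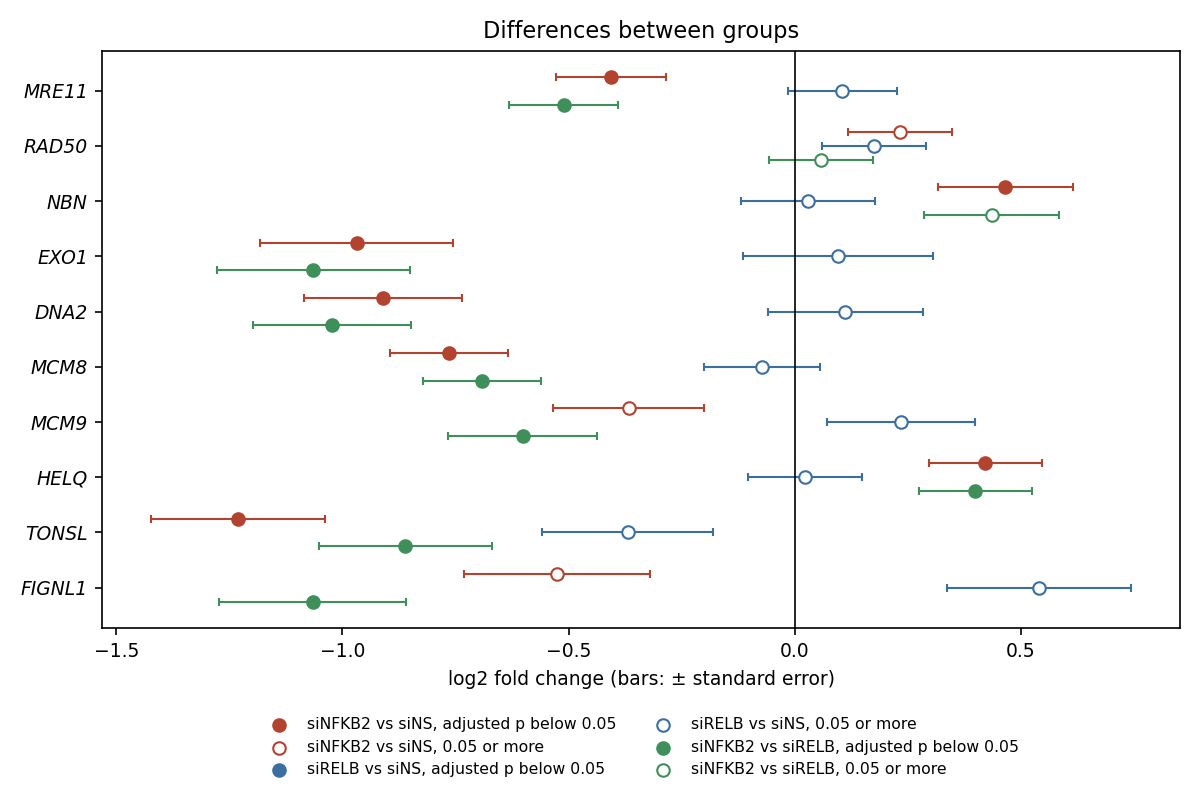
Log2 fold change of each of the 10 genes in the 3 comparisons, with bars of ± 1 SE, filled where the adjusted p was below 0.05 and open otherwise. For siNFKB2, EXO1, DNA2, MCM8 and TONSL lie left of 0 against both siNS and siRELB, and HELQ and NBN lie right of 0 against both. No point of siRELB against siNS is filled.

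The direct comparison of siNFKB2 with siRELB does not use siNS for its difference, and asks which genes separate the knockdowns. Here 7 of the 10 genes fell and 1 rose in siNFKB2, where 26.6% of all genes tested were called, 14.3% lower and 12.2% higher. The median log2 fold change was -0.65 for the 10 genes and 0.02 for all genes. The siNFKB2 and siRELB libraries did not overlap for 9 of the 10 genes, as for 46.0% of all genes tested. Deviations of same-numbered libraries correlated for every number in this comparison. Even so, siRELB replicate 2 correlated more with siNFKB2 replicate 3 than with siNFKB2 replicate 2. With the replicate number as a block the calls over all genes were 6054, against 3934 without it, while 7 of the 10 genes fell and 2 rose.

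FIGNL1 and EXO1 differed most between the knockdowns. FIGNL1 averaged 24.3 ± 3.39 CPM in siNFKB2 and 51.0 ± 5.03 CPM in siRELB (log2 -1.07, SE 0.21, adjusted p = 0.00451), and it was called in all 18 alternatives. EXO1 averaged 29.8 ± 11.2 CPM in siNFKB2 and 62.5 ± 1.83 CPM in siRELB (log2 -1.06, SE 0.21, adjusted p = 0.00537). DNA2 (log2 -1.02, SE 0.17, adjusted p = 0.00248), TONSL (log2 -0.86, SE 0.19, adjusted p = 0.00885) and MCM8 (log2 -0.69, SE 0.13, adjusted p = 0.00396) fell as well. All 5 of these kept an adjusted p below 0.05 in every alternative.

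MCM9, MRE11 and HELQ were called with less margin. MCM9 had 9.88, 8.53 and 7.08 CPM in siNFKB2, against 12.5, 12.0 and 14.2 CPM in siRELB (log2 -0.60, SE 0.17, adjusted p = 0.0229). It lost the call without siNFKB2 replicates 2 or 3 (adjusted p = 0.0805 and 0.0931) and without siRELB replicates 2 or 3 (0.0527 and 0.0941), in a range of 0.00329 to 0.0941. MRE11 had 50.6, 42.1 and 42.7 CPM in siNFKB2, against 61.7, 65.3 and 65.9 CPM in siRELB (log2 -0.51, SE 0.12, adjusted p = 0.012). The same libraries left out took it to 0.0707, 0.0591, 0.0515 and 0.0529, in a range of 0.000386 to 0.0707. HELQ had 17.6, 17.2 and 17.1 CPM in siNFKB2, against 13.7, 12.5 and 13.1 CPM in siRELB (log2 0.40, SE 0.13, adjusted p = 0.0384). It lost the call with any library left out except siNS replicates 1 and 2, with adjusted p = 0.0612 for siNS replicate 3 left out, 0.0632, 0.0947 and 0.0902 without siNFKB2 replicates 1 to 3, and 0.0734, 0.144 and 0.119 without siRELB replicates 1 to 3, in a range of 0.0159 to 0.184.

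NBN missed the threshold narrowly between the knockdowns, with 117.0, 105.8 and 111.1 CPM in siNFKB2, against 94.8, 78.7 and 73.3 CPM in siRELB (log2 0.44, SE 0.15, adjusted p = 0.0533). With the replicate block its adjusted p was 0.00473, and over the 18 alternatives it ranged from 0.00126 to 0.192. It was called without siRELB replicate 1 (0.0414), siNS replicate 1 (0.0164) or siNS replicate 2 (0.0402). RAD50 had 58.9, 56.2 and 52.6 CPM in siNFKB2, against 54.8, 49.6 and 56.8 CPM in siRELB, with overlap (log2 0.06, SE 0.12, adjusted p = 0.748).

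Per kilobase of exon, with the exonic lengths of GENCODE 29, NBN stood alone at the top in siNFKB2 at 18.1 ± 0.905 CPM per kb, followed by EXO1 at 7.21 (5.59 to 10.3), with no overlap. In siNS EXO1 and NBN were at 14.1 ± 0.990 and 13.1 ± 2.38 CPM per kb and overlapped. Below them in siNS came MCM8 at 9.54 ± 0.524, TONSL at 8.44 ± 2.18, DNA2 at 7.93 (6.81 to 9.77), MRE11 at 7.77 ± 0.729 and FIGNL1 at 6.96 ± 2.17 CPM per kb, where each overlapped its neighbour. RAD50 (4.87 ± 0.404), HELQ (3.47 ± 0.282) and MCM9 (0.878 ± 0.0944) then followed without overlap between neighbours. MCM9 was also the lowest per kb of its longest coding transcript, at 2.15 CPM per kb in siNS. Other places in siNS depended on the length used. On the transcript length NBN was above EXO1, and TONSL (13.3) was above MCM8 (9.80). FIGNL1 (9.47) was then above DNA2 (9.18) and MRE11 (8.67).

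Likeness in how genes varied over the 9 libraries was measured as the root mean square difference of log2(CPM + 0.5) profiles, each centred on its own mean. The closest pairs among the 10 were MRE11 with MCM9 (0.101), NBN with HELQ (0.112), RAD50 with HELQ (0.150) and EXO1 with DNA2 (0.167), and the most distant was NBN with TONSL (0.783). Among the 10615 tested genes averaging 5 CPM or more, DNA2 was nearest to E2F8 (0.0894) and ERG (0.0936), and MCM8 to ZNF70 (0.0649) and EZH2 (0.0732). EXO1 was nearest to NUDT3 (0.0806) and CCDC115 (0.0807), TONSL to ECI1 (0.125) and CSPG4 (0.141), and MRE11 to CSNK2A1 (0.0562) and BCL2L11 (0.0576). The genes that rose were nearest to CASP8 (0.0580) and SMAP1 (0.0583) for NBN, and to ATP6V1G1 (0.0331) and POLR1B (0.0483) for HELQ.

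MCM8 and HELQ each lie head to head with a neighbour whose transcripts start within 1000 bases on the other strand, in GENCODE 29. MCM8 (chromosome 20, 5950652 to 5998977, plus strand, GRCh38) starts 94 bases from TRMT6, a subunit of a tRNA methyltransferase. HELQ (chromosome 4, 83407343 to 83455856, minus strand) starts 76 bases from MRPS18C, a protein of the mitochondrial ribosome. MCM8 and HELQ were called in siNFKB2 against siNS and these neighbours were not, though the difference within a pair was not tested. The stretches between the starts are shown for that reason, and whether they act on both genes of a pair was not measured. They are reference sequence credited to RefSeq (GRCh38.p14), 5′ to 3′ in the direction of MCM8 or HELQ, at chr20:5950559-5950651 (plus strand) and chr4:83455857-83455931 (minus strand). Capitals mark a CCAAT box, here on the reverse strand.
MCM8: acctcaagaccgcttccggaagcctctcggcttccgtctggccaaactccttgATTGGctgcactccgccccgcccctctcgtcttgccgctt
HELQ: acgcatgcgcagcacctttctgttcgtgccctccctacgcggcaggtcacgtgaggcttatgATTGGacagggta

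Both stretches hold a CCAAT box. In the longer RefSeq windows from 250 bases before to 50 after a gene start, one was found for 4 of 7 genes searched, MCM8, HELQ, MCM9 and MRE11. That count is by gene, and the 7 genes had 9 windows. Of all 35116 windows, 34.6% hold a CCAAT box. TRMT6 had 73.8, 80.1 and 69.9 CPM in siNFKB2, against 65.4, 55.7 and 68.9 CPM in siNS, and was not called (log2 0.24, SE 0.12, adjusted p = 0.166). There were 0.689, 0.466 and 0.592 MCM8 counts per TRMT6 count in siNFKB2, 1.19, 1.06 and 1.13 in siRELB, and 1.17, 1.34 and 0.998 in siNS. The siNFKB2 libraries lay under all others. MRPS18C had 31.9, 28.1 and 31.0 CPM in siNFKB2, against 30.8, 35.3 and 31.0 CPM in siNS (log2 -0.09, SE 0.12, adjusted p = 0.612). There were 0.550, 0.612 and 0.551 HELQ counts per MRPS18C count in siNFKB2, 0.498, 0.453 and 0.435 in siRELB and 0.450, 0.333 and 0.421 in siNS, again with siNFKB2 apart. MRE11 shares 2.93% of its exonic length with ANKRD49, a head-to-head neighbour on the opposite strand, which was not called in siNFKB2 (log2 0.21, SE 0.16, adjusted p = 0.36).

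**Figure D3:**
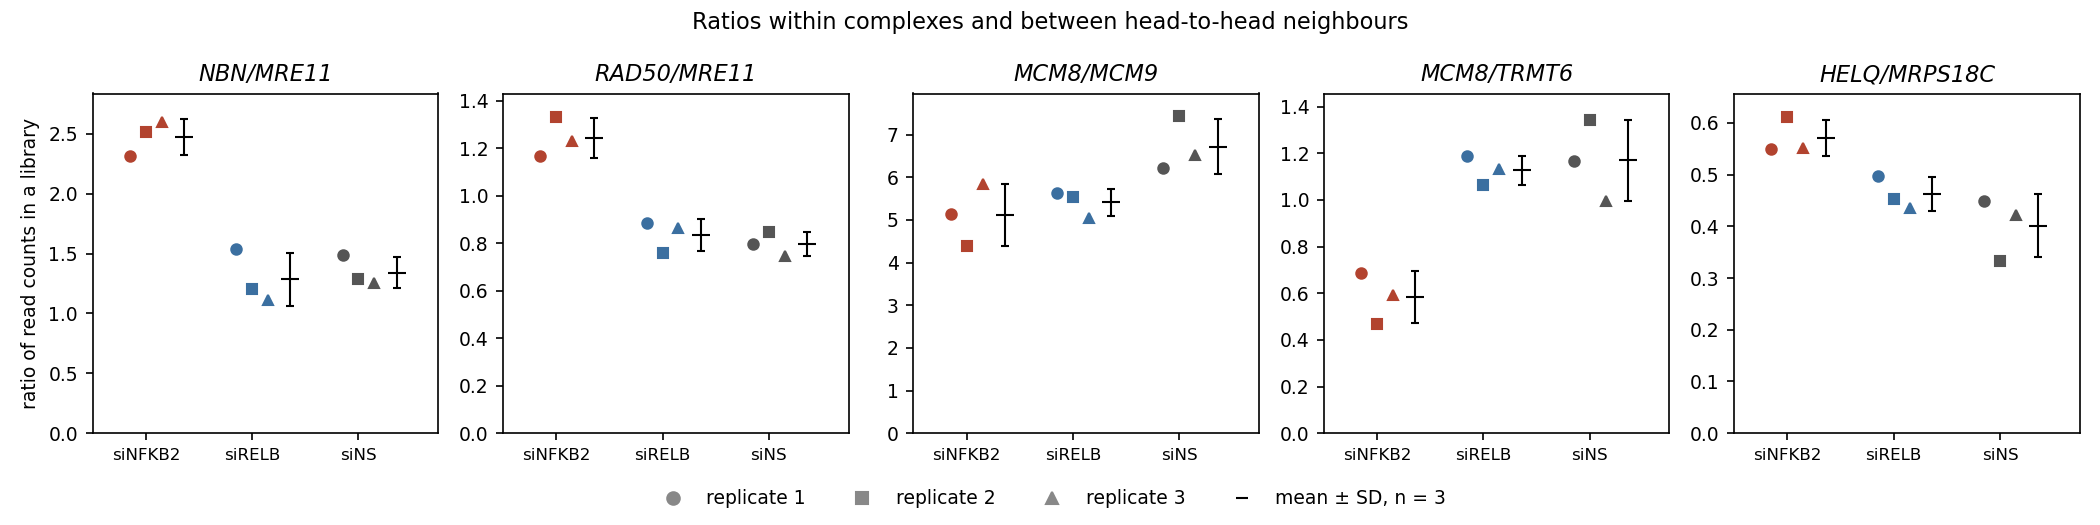
Ratio of read counts between pairs of genes in each library, on linear axes from 0, with replicates as circles, squares and triangles and the mean ± SD of 3 beside them. The siNFKB2 libraries lie above the others for NBN/MRE11, RAD50/MRE11 and HELQ/MRPS18C and under them for MCM8/TRMT6, and they overlap siRELB for MCM8/MCM9.

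RefSeq windows were searched for E2F words, the CHR words of late cell cycle genes, the CCAAT box and the kB motif bound by NF-kB, on both strands. Windows of 7 of the 10 genes were used: EXO1, HELQ, RAD50, MCM9, FIGNL1, MRE11 and MCM8. No window of NBN, DNA2 or TONSL was searched, so DNA2 and TONSL are missing among the genes that fell in siNFKB2. An E2F word (TTTCCCGC, TTTCGCGC, TTTGCCGC or TTTGGCGC) was found in 1 of the 2 windows of EXO1, at base 5 of the transcript start that window uses, and for MCM8, 27 bases in and on the reverse strand, and for no other of the 7. Of all 35116 windows, 3.31% hold one. The matches are shown with 11 flanking bases, with the word in capitals, from chr1:241848197-241848226 and chr20:5950667-5950696 (plus strand, GRCh38.p14).
EXO1: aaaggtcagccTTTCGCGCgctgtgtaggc
MCM8: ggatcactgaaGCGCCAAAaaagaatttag

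EXO1 and MCM8 both fell in siNFKB2, as did MRE11, in whose window no E2F word was found. The kB motif was found in none of the 7 genes' windows and is in 5.91% of all windows. A CHR word (TTTGAA or TTCGAA) was found in both windows of HELQ and is in 16.4% of all windows. No match says only that these letters are not in this window, and no binding was measured.

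Related genes were followed through lists chosen with earlier results of these data known, so their directions are no independent support. Over all genes tested, 13.5% were called lower and 12.6% higher in siNFKB2 against siNS, and the counts below stand beside those shares. Among 15 tested partners of resection, which start or extend it or coat the tail, 5 fell and 1 rose in siNFKB2 against siNS, with a median log2 fold change of -0.23. BLM, a helicase that unwinds ends for DNA2, fell (log2 -1.08, SE 0.14, adjusted p = 0.000564), as did RMI2 (-0.98) of the BLM complex and RPA3 (-0.74) of the RPA complex. EXD2, a nuclease linked to resection, rose (log2 0.87, SE 0.14, adjusted p = 0.00216). Of 11 genes listed as restraints of resection or of the recombinase after it, 4 fell and 1 rose, with a median of -0.11. XRCC5 (log2 -0.97), a Ku subunit that caps ends, RECQL5 (-0.82), a helicase that takes apart recombinase filaments, and MAD2L2 (-0.65), a partner of shieldin, fell, and SHLD2 (0.70), a shieldin subunit, rose.

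Among 15 partners of the accessory factors and mediators of the recombinase, 8 fell and none rose in siNFKB2 against siNS, with a median log2 fold change of -0.55. C1orf112, the partner of FIGNL1, fell (log2 -0.73, SE 0.16, adjusted p = 0.00746), beside RAD54L (-0.88) and RAD51D (-0.74). C17orf53, which loads MCM8-MCM9, fell (log2 -0.62, adjusted p = 0.0139), and MMS22L, the partner of TONSL, was at -0.54 (adjusted p = 0.0826). C17orf53 and MMS22L were named after their values were seen. Of 8 genes listed as MCM relatives, 7 fell, with a median of -1.04, among them MCM3 (-1.41), MCM5 (-1.08), MCM7 (-1.01) and MCM4 (-0.94). That list holds the subunits of the replicative MCM complex and also MCM10 and MCMBP, which are not subunits of it and are named only to describe the list. Of 33 other genes of G1/S phase, 30 fell and none rose, with a median of -0.89, among them UHRF1 (-1.46), E2F1 (-1.41), CDC45 (-1.09) and PCNA (-1.09). The part of this shift in S phase genes in the falls of EXO1, DNA2, MCM8 and TONSL was not tested.

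In siRELB against siNS edgeR called none of these lists' genes. At an unadjusted p below 0.05 were 1 of 15 resection partners, 1 of 11 restraints, 2 of 15 accessory partners, 2 of 8 MCM relatives and 4 of 33 G1/S genes, beside 16.8% of all genes tested. DESeq2 called 0, 0, 1, 1 and 2 of them and limma-voom called 0 in each list, beside 879 and 311 of the 14815 genes. The medians were 0.06, -0.04, -0.07, -0.11 and -0.15. In siNFKB2 against siRELB, 5 of 15 resection partners fell and 1 rose, 2 of 11 restraints fell and 1 rose, and 6 of 15 accessory partners, 8 of 8 MCM relatives and 27 of 33 G1/S genes fell, where 14.3% of all genes tested were called lower and 12.2% higher. The 3 restraints called are close to the 26.6% called over all genes.

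**Figure D4:**
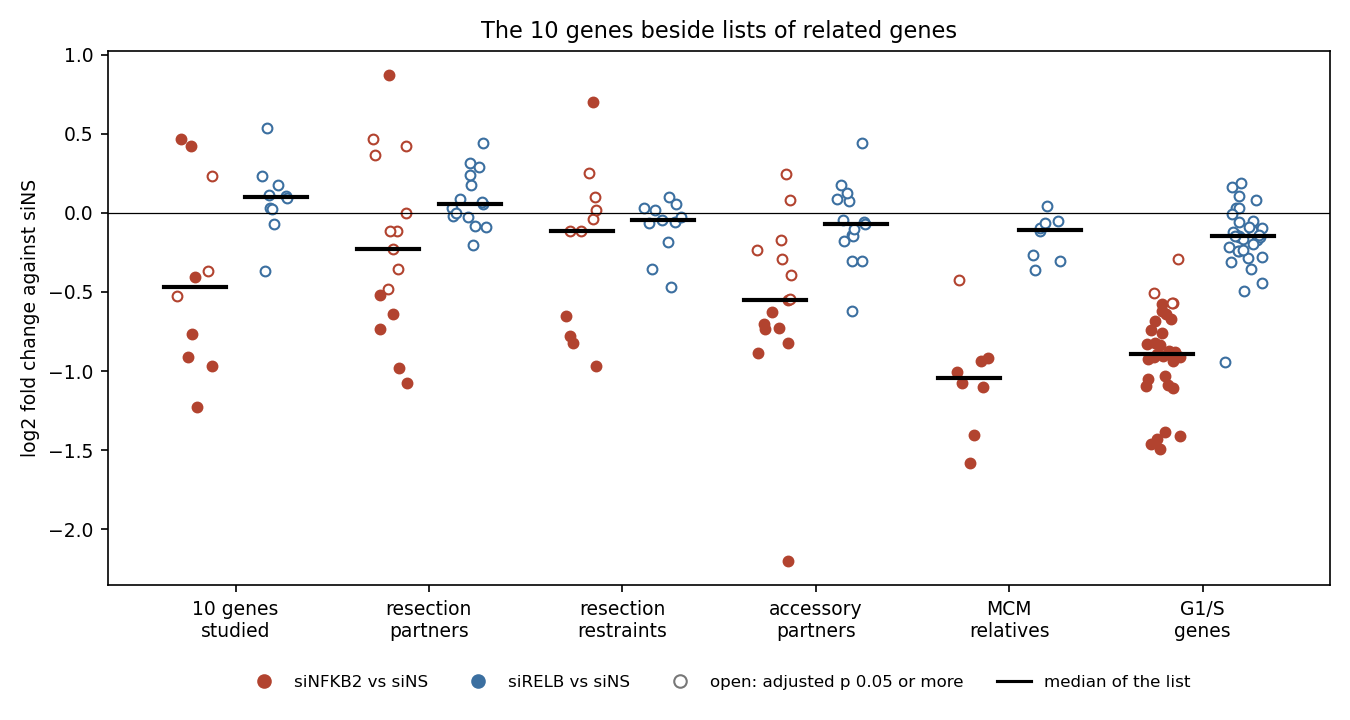
Log2 fold change against siNS for the 10 genes and for 5 lists of related genes, in siNFKB2 (left, red) and siRELB (right, blue), each point a gene, filled where called, with the list median as a bar. In siNFKB2 the medians run from -0.11 for the restraints to -1.04 for the MCM relatives with -0.47 for the 10 genes, and every siRELB point is open.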

How the data were processed

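Per the file headers, the authors deposited whole-number alignment counts per gene symbol for each library, with no normalization. The submitters' processing notes name GRCh38.p13, Trimmomatic 0.38, STAR 2.7.1a and Subread 1.6.4, without their role. Strandedness of counting and the annotation behind it were not stated in those notes or headers, so overlapping genes may share counts. Polyadenylated RNA had been selected with oligo-dT, per the labels' protocols.

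From the counts, genes were filtered with filterByExpr of edgeR 4.0.16 in R 4.3.3 and scaled by TMM. All 9 libraries entered 1 model of 3 group means, with quasi-likelihood F tests and Benjamini-Hochberg adjustment over 14815 genes, and checked on simulated data. The SE is the absolute log2 fold change over the square root of F. Entries with a suffix (5005) were kept apart. Overlaps and lengths come from GENCODE 29 on GRCh38. Alternatives used RLE scaling, DESeq2 1.42.0, limma-voom (limma 3.58.1), other filters, the compared libraries alone, summed suffixed entries, a replicate block and libraries left out.

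For siNFKB2 against siRELB, deviations of same-numbered libraries from their group means correlated at 0.57, 0.22 and 0.49 across genes. The siNFKB2 replicate 3 also correlated with siRELB replicate 2, at 0.31, above the 0.22 of the libraries numbered 2. Pairing by number is thus no more than a hint from the data, since the labels give only numbers.

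The 10 genes and the lists were chosen with earlier results of these data known. All 10 are named, with up to 4 genes a list by adjusted p and the 2 nearest profiles of each gene called in siNFKB2 against siNS. Some genes that meet this rule are not reported here.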

Additional observations from a re-analysis of the deposited data

How the results depend on the processing

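EXO1, DNA2, MCM8 and TONSL kept their direction and their call against siNS and against siRELB in all 18 alternatives to the siNFKB2 comparisons. Without 1 library, 4 to 6 of the 10 genes were called lower and 0 to 2 higher in siNFKB2 against siNS, 0 to 1 either way in siRELB against siNS, and 5 to 7 lower and 0 to 2 higher in siNFKB2 against siRELB. In siNFKB2 against siNS, 0 were called higher with no filter and with the compared libraries alone. In siNFKB2 against siRELB, 0 were called higher with no filter, and 2 with DESeq2, limma-voom, a mean of at least 5 CPM, the compared libraries alone, the block, or the 3 libraries numbered 1 left out. In siRELB against siNS, 1 was called lower and 1 higher without the 3 libraries numbered 1, and 1 higher with the block.

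Without 1 library, calls over all genes ranged from 2220 to 4895 in siNFKB2 against siNS, from 15 to 1819 in siRELB against siNS and from 2188 to 4917 in siNFKB2 against siRELB. They were 6711, 3390 and 6600 without the 3 libraries numbered 1. In siRELB against siNS they were 879 with DESeq2 and 129 with the compared libraries alone, against 299. With the replicate block they were 5944, 1570 and 6054. In siNFKB2 against siNS the deviations of same-numbered libraries correlated at 0.62, 0.09 and 0.11, and in siRELB against siNS at 0.65, 0.45 and 0.06. In no comparison did every library correlate best with its own number, and the model of 3 group means did not take the numbers as pairs. The block called FIGNL1 lower in siNFKB2 (log2 -0.50, adjusted p = 0.0076) and higher in siRELB (log2 0.57, adjusted p = 0.014), and changed no call of the other 9 genes against siNS. In siRELB, NBN ranged from -0.084 to 0.19 and HELQ from -0.053 to 0.078 without 1 library, both changing sign. The cause of these differences was not tested. MRE11 and NBN against siNS also lost their calls with no filter (adjusted p = 0.06 and 0.0654) and with the compared libraries alone (0.0911 and 0.075), as did HELQ (0.168 and 0.0905).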
